A study of Mus musculus with 9 samples.

Results

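Tmem98, Tmem176a and Tmem176b encode transmembrane proteins whose transcripts were abundant in the parental mouse colon carcinoma line MC38-P and scarce in both cell lines derived from its liver metastases. These 3 genes, of 16399 listed in the deposited expression files and 11287 with enough signal to be tested, were chosen because their levels lay far below those of MC38-P in both derivatives. The difference from MC38-P is therefore given as a description without a test, and tests are kept for the difference between the derivatives and for other genes. The study compared MC38-P, a line labelled with GFP and luciferase, with MC38-LM3a and MC38-LM3b to find what sets highly metastatic cells apart. MC38-LM3a and MC38-LM3b were derived independently by 3 rounds in which cells were injected into the spleen of immunocompetent C57BL/6 mice, liver metastases were excised and digested with collagenase, and the tumour cells were expanded in culture. Each group is 1 cell line grown in culture and carries the same reporters, and each was sequenced as 3 replicates, so the p-values below cover the spread between replicates of these lines. Poly(A) RNA of the 9 samples, labelled as colon epithelial cells, was sequenced on the DNBSEQ platform, and expression was given as TPM, transcript abundance scaled to 1 total per library and per transcript length, which allows levels of different genes to be compared.

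Tmem98 is a membrane protein with a single membrane-spanning stretch that binds the membrane-tethered transcription factor Myrf and blocks its self-cleavage. It is best known from the eye, where mutations of the human gene alter eye size. Tmem176a and Tmem176b are related proteins with several membrane-spanning segments, distant relatives of the MS4A family that includes the B cell antigen CD20. Both sit in membranes inside the cell and are known mainly from dendritic cells and certain lymphocytes, and Tmem176b has been described as a cation channel that restrains the Nlrp3 inflammasome, the caspase-1-activating complex of innate immunity.

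Tmem176a and Tmem176b are neighbours on chromosome 6, on opposite strands, whereas Tmem98 lies on chromosome 11. Their promoter windows, 250 bases before to 50 bases after the transcript start, are shown because the genes shared a pattern of expression while their promoters differed in CpG content. The sequences are from RefSeq on GRCm38.p6, read 5′ to 3′ on the strand of the gene, with each CpG dinucleotide in capitals. The submitters' processing notes name GRCm39, and positions on the builds were not mixed.
Tmem98 (chr11:80810116-80810415, plus strand): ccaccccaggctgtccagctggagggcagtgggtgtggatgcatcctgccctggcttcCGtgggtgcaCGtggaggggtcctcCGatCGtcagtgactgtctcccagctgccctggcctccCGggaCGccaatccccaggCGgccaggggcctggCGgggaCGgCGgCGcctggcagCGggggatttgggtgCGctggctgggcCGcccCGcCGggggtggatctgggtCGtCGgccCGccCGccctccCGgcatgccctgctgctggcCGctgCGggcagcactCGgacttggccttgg
Tmem176a (chr6:48841233-48841532, plus strand): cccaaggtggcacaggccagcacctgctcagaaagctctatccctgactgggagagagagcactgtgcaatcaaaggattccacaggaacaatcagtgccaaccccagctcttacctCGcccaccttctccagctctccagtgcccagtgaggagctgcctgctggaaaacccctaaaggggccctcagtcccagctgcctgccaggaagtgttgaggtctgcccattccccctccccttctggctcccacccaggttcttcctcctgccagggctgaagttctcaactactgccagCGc
Tmem176b (chr6:48841325-48841624, minus strand): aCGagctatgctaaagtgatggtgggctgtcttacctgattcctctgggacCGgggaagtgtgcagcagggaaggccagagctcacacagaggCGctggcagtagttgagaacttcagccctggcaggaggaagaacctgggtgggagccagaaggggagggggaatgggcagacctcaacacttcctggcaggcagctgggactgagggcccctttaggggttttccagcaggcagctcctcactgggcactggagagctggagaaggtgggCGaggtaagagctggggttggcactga

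The Tmem98 window held 24 CpG dinucleotides and had a GC content of 74.3%, and 80.02% of the 32851 RefSeq promoter windows of 27025 genes held fewer. The window of Tmem176a held 2 CpG dinucleotides at a GC content of 59.7%, and that of Tmem176b held 4 at 60.3%. Only 14.1% of all windows had fewer CpG than that of Tmem176a, and 31.4% had fewer than that of Tmem176b, where the median window had 7. RefSeq lists further starts for the pair, and those windows held 5 CpG for Tmem176a and 2 and 1 for Tmem176b. The ratio of observed to expected CpG was 0.581 for Tmem98, 0.0790 for Tmem176a and 0.159 for Tmem176b, so the CpG-rich promoter belonged to Tmem98 and the CpG-poor ones to the pair. DNA methylation was not measured in these samples.

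**Figure D1:**
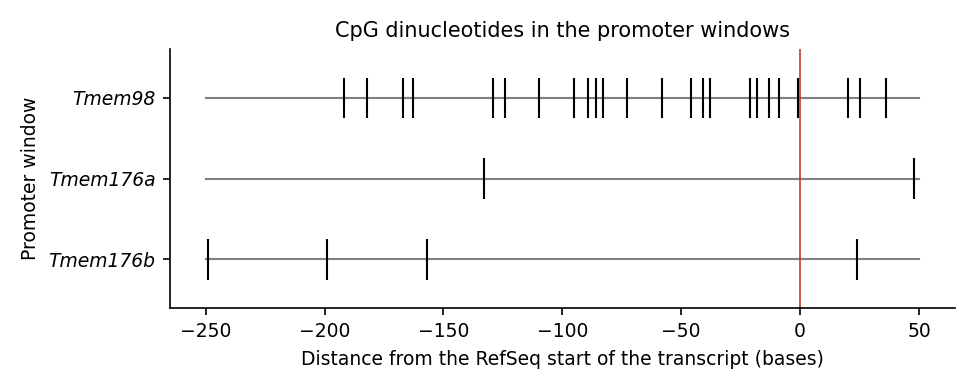
CpG dinucleotides (black ticks) in the promoter windows printed above, by distance in bases from the RefSeq transcript start (red line). The Tmem98 window holds 24, spread on both sides of the start, while the window of Tmem176a holds 2 and that of Tmem176b holds 4.

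The starts of the printed Tmem176a and Tmem176b windows lie 109 bases apart and point away from each other, so the windows share 208 of their bases. In the RefSeq gene table the span of Tmem176b, which joins all its transcripts and reaches past the starts of its windows, takes in that of Tmem176a. In GENCODE M21 the genes overlap by 578 bases, and 81 exon bases are common to both, which is 2.13% of the exon bases of Tmem176a and 3.42% of those of Tmem176b. The sources used here do not state whether counting used the strand, so reads from shared bases may not be separable. Among the motifs searched on both strands, the Tmem98 window held 1 match to CCAAT, found in 37.4% of all windows, 3 to the GC box GGGCGG, found in 35.7%, and 3 to the E-box CANNTG, found in 72.3%. The printed Tmem176a window held 2 matches to CANNTG and that of Tmem176b held 1, with none to CCAAT or GGGCGG. None of the 3 printed windows held the letters TGTGGT (found in 16.8% of windows), TGACTCA (5.20%) or TATAAA (13.6%).

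All libraries summed to 1000000 TPM and had 10875 to 11218 genes at 1 TPM or more, with pairwise correlations of log2 values from 0.969 to 0.997. Replicate 3 of MC38-P and replicate 3 of MC38-LM3a stood apart from the other replicates of their groups, since the deviation of each gene from its replicates followed transcript length with Spearman coefficients of -0.62 and 0.644. Across these groups, deviations of replicate 3 of MC38-P went along with those of replicates 1 and 2 of MC38-LM3a (r = 0.479 and 0.495), and deviations of replicate 3 of MC38-LM3a with those of replicates 1 and 2 of MC38-P (r = 0.545 and 0.316). The labels do not say whether these libraries were prepared apart from the others, and for the 3 genes each lay with the other replicates of its own group. In bulk samples such as these, fewer cells that express a gene and less RNA per cell cannot be told apart. The members in replicate 3 of MC38-P and of MC38-LM3a are therefore given with and without those libraries.

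Tmem98 was measured at 21.4, 18.8 and 18.4 TPM in the 3 MC38-P libraries. It was at 0.81, 0.51 and 0.54 TPM in MC38-LM3a and at 0.37, 0.37 and 0.73 TPM in MC38-LM3b. The lowest parental library was far above the highest derivative library, and the values of the derivatives overlapped. The parental mean was 19.5 ± 1.61 TPM, against 0.62 ± 0.165 TPM for MC38-LM3a and 0.49 ± 0.208 TPM for MC38-LM3b (SD, n = 3), so that 3.18% and 2.51% of the parental level was left. In rank among all 16399 listed genes, Tmem98 held place 6163 in MC38-P but places 11356 and 11781 in the derivatives. It met the minimum of 1 TPM in 3 libraries only through MC38-P.

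Tmem176a had 57.7, 62.1 and 66.0 TPM in MC38-P. Its level was 3.95, 4.99 and 3.57 TPM in MC38-LM3a and 4.02, 5.16 and 5.14 TPM in MC38-LM3b. Again no derivative library came near a parental one, and the ranges of MC38-LM3a and MC38-LM3b overlapped. The parental mean of 61.9 ± 4.15 TPM compared with 4.17 ± 0.735 TPM for MC38-LM3a and 4.77 ± 0.652 TPM for MC38-LM3b (SD, n = 3), which left 6.73% and 7.71% of the parental level. Unlike Tmem98, Tmem176a stayed above 1 TPM in every library, and its rank went from 2678 to 9596 and 9671.

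Tmem176b was the most abundant of the 3 in each library, at 96.2, 93.1 and 100 TPM in MC38-P. It had 7.57, 6.19 and 7.04 TPM in MC38-LM3a and 5.55, 7.59 and 8.09 TPM in MC38-LM3b. Parental and derivative libraries did not overlap, and the range of MC38-LM3a lay within that of MC38-LM3b. Means of 96.4 ± 3.41, 6.93 ± 0.696 and 7.08 ± 1.35 TPM (SD, n = 3) gave remaining levels of 7.19% in MC38-LM3a versus 7.34% in MC38-LM3b. The coefficient of variation was 3.54% in MC38-P, against 10.04% and 19.0% in the derivatives, and it was likewise lowest in MC38-P for Tmem176a (6.70%, 17.6% and 13.7%) and Tmem98 (8.25%, 26.7% and 42.4%).

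**Figure D2:**
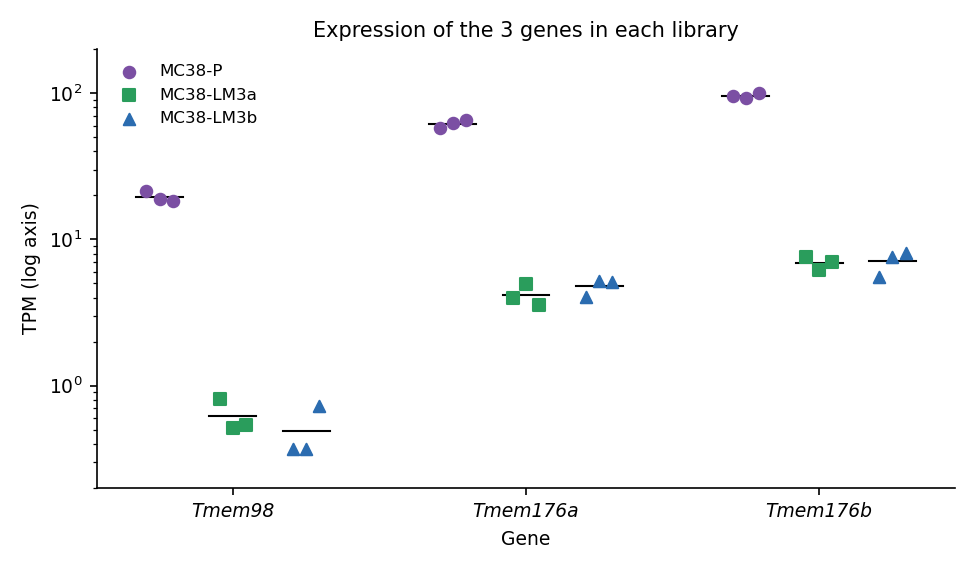
TPM of Tmem98, Tmem176a and Tmem176b in each library on a log axis, with 3 replicates per group and a bar at the group mean. For each gene the 3 MC38-P libraries sit far above all derivative libraries, and MC38-LM3a and MC38-LM3b overlap.

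The order of levels was the same in all 9 libraries, with Tmem176b above Tmem176a and Tmem176a above Tmem98. As ratios of group means, Tmem98 was 31.5-fold lower in MC38-LM3a versus 39.8-fold lower in MC38-LM3b, Tmem176a was 14.9-fold and 13.0-fold lower, and Tmem176b was 13.9-fold and 13.6-fold lower. Taking single libraries, the fold for Tmem98 ran from 22.7 to 41.9 in MC38-LM3a versus from 25.2 to 57.7 in MC38-LM3b, while no pair of libraries gave more than 18.5 for Tmem176a or 18.01 for Tmem176b. On the log2(TPM + 1) scale, which understates the change of low values, the fold changes in MC38-LM3a and MC38-LM3b were -3.66 and -3.79 for Tmem98, -3.61 and -3.45 for Tmem176a, and -3.62 and -3.61 for Tmem176b, with standard errors of 0.136, 0.132 and 0.130. The added constant of 1 thus brought Tmem98 close to the pair, although its ratio of means was more than that of either. When replicate 3 of MC38-P was left out, Tmem98 no longer reached 1 TPM in 3 libraries and had no fitted value, as also happened without either other MC38-P library. Tmem176a and Tmem176b stayed between -3.72 and -3.35 when any 1 library was left out, and without replicate 3 of both MC38-P and MC38-LM3a they were at -3.48 and -3.61 (MC38-LM3a) and at -3.40 and -3.58 (MC38-LM3b). The libraries left in MC38-P and MC38-LM3a deviated along transcript length in opposite directions, with coefficients of 0.509 and 0.413 against -0.552 and -0.513. That fit therefore cannot separate this deviation from the difference between MC38-P and MC38-LM3a.

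Differentially expressed genes (DEGs) were defined by an adjusted p under 0.05 in limma and an absolute log2 fold change above 1. All 3 genes met this definition against MC38-P in both derivatives, where 1.50% of tested genes were called lower in MC38-LM3a versus 1.18% in MC38-LM3b, and since this contrast chose them nothing is read from that count. Ordered by the mean log2 fold change of both derivatives, Tmem98, Tmem176b and Tmem176a took places 2, 3 and 4 among the 119 genes called lower in both, 1.05% of those tested, where 2.40% were called in both in either direction. Just above them was Grb10, an adaptor of insulin receptor signalling, with 13.2 TPM in MC38-P and 0.0267 and 0 TPM in the derivatives. Just below were Krt76, a keratin, with 28.6, 1.84 and 1.38 TPM, and Padi4, a protein-citrullinating enzyme, with 88.3, 12.3 and 6.01 TPM. Of the 8011 genes with a mean of at least 10 TPM in MC38-P, 7 kept under 10% of it in MC38-LM3a versus 7 in MC38-LM3b, limits that were chosen after the values were seen. The 3 genes were among them in each derivative, along with Grb10, Krt76 and the receptor tyrosine kinase Ephb2.

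Between the derivatives no difference was called for any of the 3. The choice of genes did not use this contrast itself, but it asked for low levels in both derivatives and so favoured alike values, and for Tmem98, under 1 TPM in all 6 libraries, the log2(TPM + 1) scale compresses a difference. Tmem98 differed by -0.12 on the log2(TPM + 1) scale in MC38-LM3b against MC38-LM3a, with a 95% interval from -0.43 to 0.18 (limma adjusted p = 0.474). Tmem176a differed by 0.16, with an interval from -0.13 to 0.45 (limma adjusted p = 0.339). Tmem176b differed by 0.02, with an interval from -0.27 to 0.30 (limma adjusted p = 0.931). None had an unadjusted p under 0.05 either, whereas 38.1% of tested genes did, an adjusted p under 0.05 was reached by 0.0532%, and the DEG definition was met by 0.0266%. The median of all tested genes was 0.21 higher in MC38-LM3b than in MC38-LM3a, and in a fit with each library centred on its own median the differences were -0.35 for Tmem98, -0.06 for Tmem176a and -0.21 for Tmem176b. In that fit Tmem98 had an unadjusted p of 0.032 in limma and an adjusted one of 0.172, and with quantile normalization these were 0.047 and 0.197. With pseudocounts of 0.1 and 0.01 in place of 1, the Tmem98 difference was -0.32 ± 0.258 and -0.38 ± 0.295 (SE), so its interval is wider with a smaller constant.

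Tmem176a and Tmem176b were close to each other in size of change, and their proportion overlapped between groups. The ratio of Tmem176a to Tmem176b was 0.642 ± 0.0370 in MC38-P, with 0.600, 0.667 and 0.660 in the 3 libraries. It was 0.612 ± 0.169 in MC38-LM3a, with 0.522, 0.806 and 0.507, and 0.680 ± 0.0445 in MC38-LM3b, with 0.724, 0.680 and 0.635 (SD, n = 3). The 3 ranges overlapped, and the wide one of MC38-LM3a came from replicate 2, which had the highest Tmem176a and the lowest Tmem176b of its group. In MC38-LM3b, replicate 1 was lowest for both genes. The ratio of Tmem176b to Tmem98 was 4.51 to 5.44 in MC38-P, below every derivative library, while the ranges of 9.35 to 13.0 in MC38-LM3a and of 11.1 to 20.5 in MC38-LM3b overlapped.

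Genes were then ranked by how closely their log2(TPM + 1) values followed those of each member over the 9 libraries, as a description in which all points share libraries and the parental level lies far from both derivatives. The gene closest to Tmem98 was Tmem176b (Pearson r = 0.997), followed by Tsen34 (0.997), Cyc1 (0.997), Krt76 (0.996) and Grb10 (0.996), and Tmem176a came in place 15 (0.992). The genes closest to Tmem176a were Ptp4a3 (0.995), Ahcy (0.995), Tmem176b (0.995), Tarbp2 (0.994) and Snu13 (0.993). For Tmem176b they were Tmem98 (0.997), Noc4l (0.997), Pde3b (0.996), Tsen34 (0.996) and Nop9 (0.995), with Tmem176a in place 6. By ranks the likeness was looser, with Spearman coefficients of 0.833 between Tmem176a and Tmem176b, 0.787 between Tmem98 and Tmem176b, and 0.527 between Tmem98 and Tmem176a. The order of likeness did not hold by ranks, where Tmem176b came in place 235 for Tmem98, Tmem98 in place 239 for Tmem176b and Snu13 in place 1086 for Tmem176a, while Nop9 was in place 1 for Tmem176b. Most of these companions changed far less in size, as with the tRNA-splicing endonuclease subunit Tsen34, which had 122 TPM in MC38-P and 79.2 and 77.7 TPM in the derivatives. Of the 11 distinct companions other than the 3 genes themselves, 5 lie on chromosome 15, which holds 4.11% of the tested genes and had median log2 fold changes of -0.53 in MC38-LM3a versus -0.31 in MC38-LM3b.

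The chromosomal surroundings of each gene were read next, taking the 10 protein-coding genes on either side in RefSeq order. Around Tmem98, 15 of 20 were listed and 11 tested, and 2 were called lower in MC38-LM3a, against 2.89% of all tested genes called in either direction. These were the nearest genes on one side, Myo1d, a class I myosin, and Cdk5r1, an activator of the kinase Cdk5. Myo1d went from 4.40, 4.45 and 2.68 TPM in MC38-P to 0.91, 1.28 and 1.04 TPM in MC38-LM3a, or -1.20 ± 0.189 on the log2(TPM + 1) scale (SE, limma adjusted p = 0.00095). Cdk5r1 went from 3.57, 3.00 and 2.85 TPM to 1.10, 0.81 and 1.10 TPM, or -1.05 ± 0.129 (SE, limma adjusted p = 0.00021). Neither gene overlapped between the groups.

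In MC38-LM3b none of the 11 was a DEG in limma, against 3.93% of all tested genes, with 4 at an adjusted p under 0.05, as were 46.7% of all tested genes, and 5 at an unadjusted one, as were 55.2%. Myo1d stood at 1.48 ± 0.520 TPM and Cdk5r1 at 1.52 ± 0.260 TPM there (SD, n = 3), with log2 fold changes of -0.96 and -0.72. The difference between the derivatives had a limma adjusted p of 0.329 for Myo1d and 0.119 for Cdk5r1. Myo1d was a DEG in MC38-LM3b too in 9 alternatives, at -1.39 at the lowest, against 11 with the call unchanged. Among the 9 were the fits without replicate 3 of MC38-P and without replicate 1 of MC38-LM3b, at -1.15 and -1.13. Cdk5r1 was a DEG in MC38-LM3b in 2 alternatives, at -1.05 at the lowest. Without replicate 3 of MC38-P the chemokine gene Ccl8 was also a DEG, higher by 1.05 in each derivative, and without replicate 1 of MC38-P or replicate 2 of MC38-LM3a, Cdk5r1 was not a DEG in MC38-LM3a. The third neighbour on that side, the proteasome subunit Psmd11, had 295 TPM in MC38-P and 246 and 280 TPM in the derivatives. On the other side of Tmem98, Asic2 was at 0.04 TPM or less in every library, Ccl2, the chemokine that draws monocytes, rose by 0.56 and 0.52 on the log2 scale (limma adjusted p = 7.7e-05 and 9.3e-05), under the fold threshold, and Ccl7, at 8.48, 8.71 and 6.60 TPM, was not called. The neighbours called lower in MC38-LM3a were on one side of Tmem98. On the other side only Ccl2, Ccl7 and Ccl8 were tested, and none was called lower. With 1.50% of all tested genes called lower in MC38-LM3a, so few genes cannot set the sides apart.

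Around Tmem176a and Tmem176b, 11 of 20 neighbours were listed and 7 tested, and 1 was called higher and 1 lower in each derivative, beside 2.89% and 3.93% of all tested genes called in either direction. Gimap9, a GTPase of the immunity-associated Gimap family, had 0, 0.18 and 0.15 TPM in MC38-P. It had 6.39, 5.59 and 6.44 TPM in MC38-LM3a and 6.76, 6.49 and 7.91 TPM in MC38-LM3b. The log2 fold changes of Gimap9 were 2.69 ± 0.123 and 2.86 ± 0.123 (SE, limma adjusted p = 1.8e-07 and 9.4e-08), opposite to those of the pair. Gimap9 reached the minimum of 1 TPM only through the derivatives, where it was high, so a difference was a condition of its being tested. The Gimap genes nearer to the pair that were listed, Gimap1, Gimap4 and Gimap6, were at 0.17 TPM or less in all libraries and were not tested.

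On the other side of the pair, Igf2bp3, an RNA-binding protein of fetal tissues, fell from 37.6, 38.1 and 30.7 TPM in MC38-P to 6.81, 6.86 and 8.61 TPM in MC38-LM3a and 10.1, 9.89 and 9.89 TPM in MC38-LM3b. Its log2 fold changes were -2.11 ± 0.120 and -1.73 ± 0.120 (SE, limma adjusted p = 1.0e-06 and 3.2e-06). Between the pair and Igf2bp3 lie Gpnmb (53.2, 41.8 and 61.7 TPM) and Malsu1 (62.1, 66.3 and 58.2 TPM), neither of them called. Of the 5 nearest genes on each side of the pair, 2 were listed and none was tested. On the rest of chromosome 6, 4 of 518 tested genes were called higher and 10 lower in MC38-LM3a, and 20 higher and 6 lower in MC38-LM3b, or 2.70% and 5.02% in either direction. On the rest of chromosome 11, the counts were 12 higher and 17 lower of 932 in MC38-LM3a, and 28 higher and 13 lower in MC38-LM3b, or 3.11% and 4.40%, so both chromosomes were near the 2.89% and 3.93% of all tested genes.

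**Figure D3:**
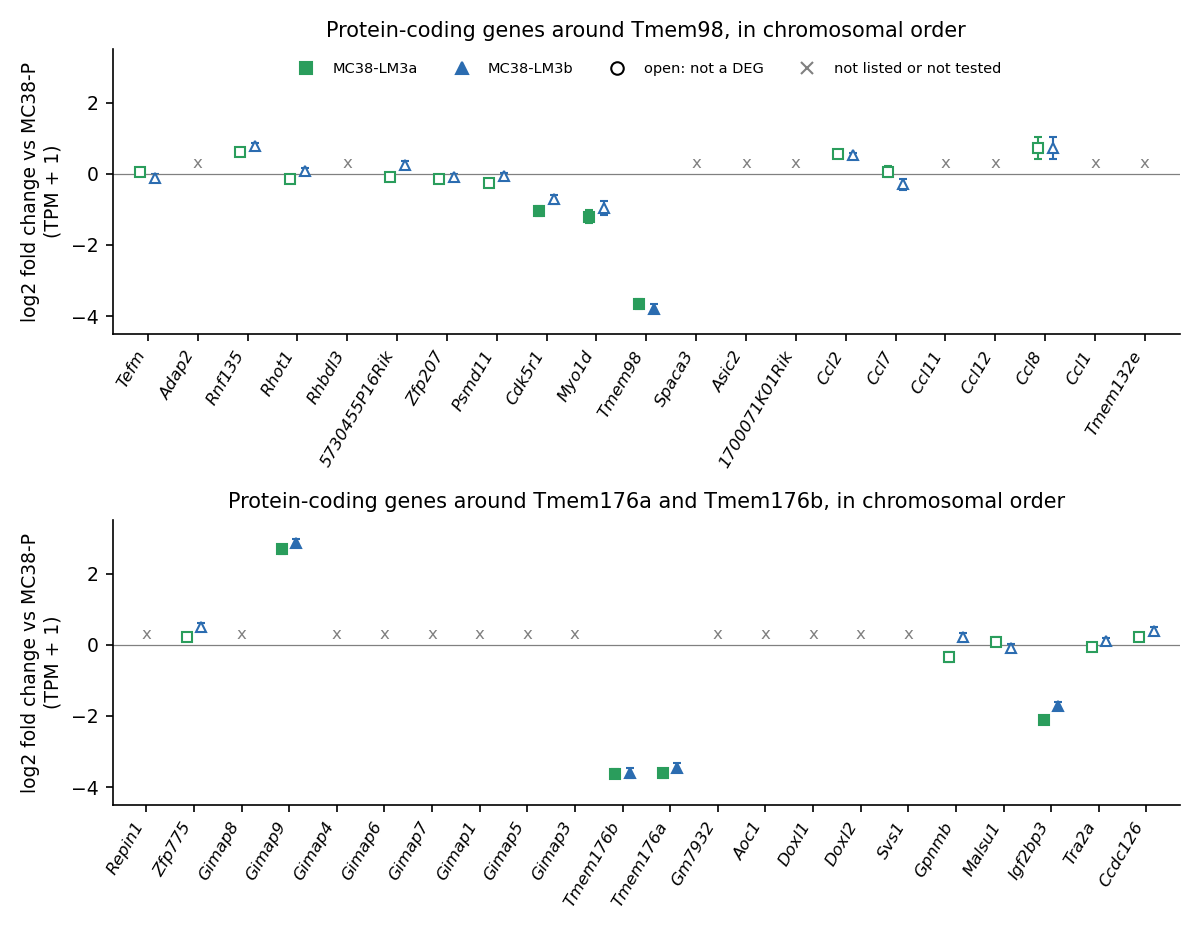
Log2 fold change against MC38-P, on the TPM + 1 scale with standard errors, of the 10 protein-coding genes on each side of Tmem98 (top) and of Tmem176a and Tmem176b (bottom), in chromosomal order and not to scale in distance. Filled symbols are DEGs, open ones are not, and a cross marks genes not listed or not tested. Tmem98 stands well below Myo1d and Cdk5r1, and the pair lies between Gimap9, which is higher, and Igf2bp3, which is lower.

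Genes named Tmem and a number share a naming convention for transmembrane proteins and not a common ancestry. Of the 208 others listed, 146 were tested, and 3 were DEGs in MC38-LM3a versus 5 in MC38-LM3b, all of them higher, beside 1.39% and 2.76% of all tested genes called higher. These are 2.05% and 3.42% of the 146, close to the 2.89% and 3.93% of all tested genes called in either direction. In limma none of the 146 was a lower DEG in either derivative, while at an adjusted p under 0.05 there were 35 higher and 12 lower in MC38-LM3a versus 61 higher and 8 lower in MC38-LM3b. In either direction, 58 and 80 had an unadjusted p under 0.05, beside 38.5% and 55.2% of all tested genes, and an adjusted p under 0.05 was reached by 28.0% and 46.7% of all tested genes. Their median log2 fold change was 0.08 in MC38-LM3a versus 0.23 in MC38-LM3b, beside medians of -0.000162 and 0.21 over all tested genes. Among 211 genes of that name, Tmem176b ranked 11 in MC38-P and 113 and 116 in the derivatives. Tmem176a went from place 25 to 130 and 129, and Tmem98 from 75 to 152 and 155.

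The Tmem genes that were DEGs in both derivatives moved the other way. Tmem229b rose from 5.56 ± 0.448 TPM to 15.03 ± 2.52 and 19.2 ± 0.384 TPM (log2 fold changes 1.28 and 1.62). Tmem140 rose from 3.09 ± 0.231 TPM to 7.56 ± 0.178 and 8.53 ± 1.87 TPM (1.07 and 1.20), and Tmem35b from 2.03 ± 0.348 to 5.32 ± 0.205 and 5.50 ± 1.65 TPM (1.07 and 1.08), each with SD over n = 3. Tmem220 and Tmem71 passed the fold threshold in MC38-LM3b, with 1.13 and 1.02, and had 0.93 and 0.68 in MC38-LM3a. Between the derivatives limma gave 0 of the 146 an adjusted p under 0.05 and 56 an unadjusted one, beside 0.0532% and 38.1% of all tested genes. With each library centred on its median, Tmem140, Tmem35b, Tmem71 and Tmem220 fell short of the fold threshold in MC38-LM3b, while Tmem119 passed it as lower, at -1.10 with centring and -1.01 with quantile normalization. In the fit without centring Tmem119 had 1.26, 0.177 and 0.227 TPM in the 3 groups and log2 fold changes of -0.95 and -0.88 (limma adjusted p = 0.00034 and 0.00036), passed the fold threshold in both derivatives with smaller pseudocounts, and was tested only through MC38-P, where it was high.

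**Figure D4:**
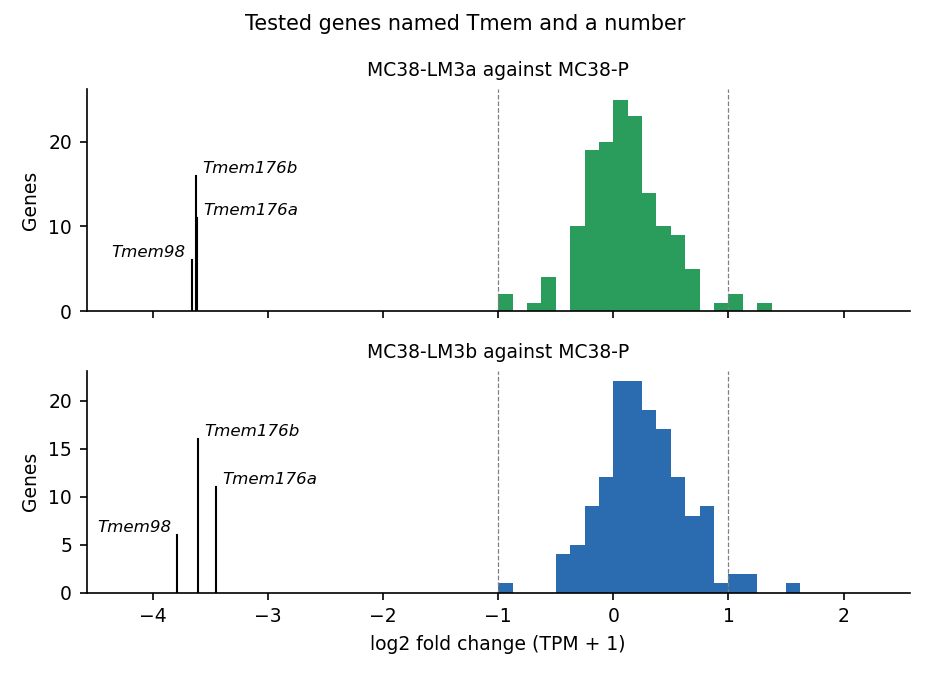
Histograms of the log2 fold change against MC38-P, on the TPM + 1 scale, of 146 tested genes named Tmem and a number, with dashed lines at the fold threshold of the DEG definition. Labelled vertical lines mark Tmem98, Tmem176a and Tmem176b, whose height has no meaning, and they lie between -3.79 and -3.45, apart from all other genes of that name.

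Tmem176b has been tied to the inflammasome, so a list of 26 genes of inflammasome sensors, caspases, cytokines and pore formers was read beside it. Of these, 25 were listed and 14 tested, and 4 were DEGs in MC38-LM3a versus 5 in MC38-LM3b, all higher, beside 1.39% and 2.76% of all tested genes. Nlrp3, Naip5 and Naip6 were under 1 TPM in every MC38-P library and were tested only because they were high in the derivatives. They make up 2 of the 4 calls and 3 of the 5, so the count is not read against the share of all genes.

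Nlrp3, the sensor, had 0.32, 0.26 and 0.18 TPM in MC38-P, 1.75, 1.83 and 2.12 TPM in MC38-LM3a and 2.65, 2.35 and 2.32 TPM in MC38-LM3b. It rose by 1.21 ± 0.112 and 1.46 ± 0.112 on the log2(TPM + 1) scale (SE, limma adjusted p = 3.2e-05 and 6.7e-06), from a level below 1 TPM. That rise was a condition of its being tested, so nothing is read from these p-values. Casp1, the protease that the complex activates, had 7.92, 6.62 and 7.26 TPM in MC38-P, 30.1, 33.6 and 28.6 TPM in MC38-LM3a and 39.3, 36.2 and 37.6 TPM in MC38-LM3b. It rose by 1.94 ± 0.098 and 2.23 ± 0.098 (SE, limma adjusted p = 4.1e-07 and 1.1e-07), and no library of the derivatives overlapped with MC38-P for either gene.

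The bacterial sensors Naip2 and Naip6 also rose in both derivatives, Naip2 by 1.64 and 2.07 and Naip6 by 1.70 and 1.77 on the log2 scale. Naip5 rose by 0.89 and 1.05, on either side of the fold threshold, and its call depended on the setting, since values over the alternatives ran from 0.83 to 3.33 in MC38-LM3a versus 0.78 to 3.64 in MC38-LM3b. These paralogs share sequence, so their separate values are uncertain. Gsdmd, the pore former cut by Casp1, fell by 0.33 in MC38-LM3a versus by 0.22 in MC38-LM3b (limma adjusted p = 0.0043 and 0.020) and stayed abundant, at 84.7, 67.3 and 72.4 TPM. The cytokine Il18 rose by 0.77 and 0.56 (limma adjusted p = 0.0077 and 0.023). The adaptor Pycard was between 0.06 and 0.48 TPM and Il1b was at 0.13 TPM or less in every library, so these parts of the pathway were too low to be tested.

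**Figure D5:**
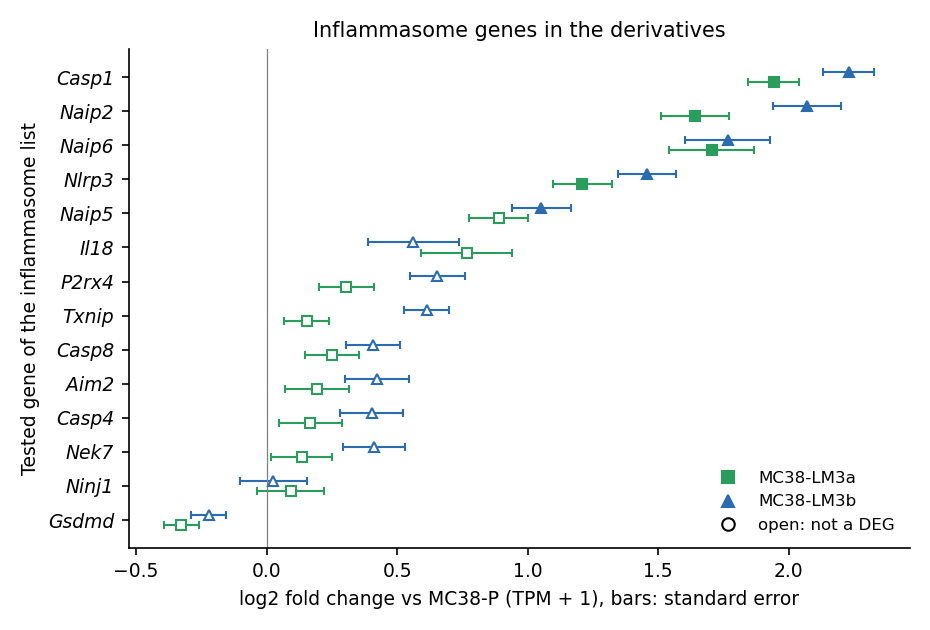
Log2 fold change against MC38-P, on the TPM + 1 scale with standard errors, of the 14 tested genes of the inflammasome list in MC38-LM3a (squares) and MC38-LM3b (triangles). Filled symbols are DEGs, all of them higher, led by Casp1 at 1.94 and 2.23, and Gsdmd is the one gene below 0 in both derivatives. Nlrp3, Naip5 and Naip6 were tested only because they were high in the derivatives.

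A list of genes tied to Tmem98 was read next. It held Myrf and its paralog, the Frat and Gsk3 genes, the eye-size genes Prss56 and Mfrp, Nedd4-type ubiquitin ligases with their adaptors, and Atrn. Of its 13 genes, 7 were tested. None was a DEG in limma in either derivative, where 2.89% and 3.93% of all tested genes were, with 2 in MC38-LM3a versus 4 in MC38-LM3b higher at an adjusted p under 0.05 (28.0% and 46.7% of all tested genes in either direction) and 2 and 5 at an unadjusted one (38.5% and 55.2%). Myrf, the best known partner of Tmem98, was at 0.04 to 0.17 TPM in the 9 libraries. Frat2, another described partner, was at 0.17 to 0.83 TPM and Prss56 at 0.16 to 0.66 TPM. Tmem98 was thus expressed in MC38-P beside little or no transcript of Myrf, Frat2 and Prss56. The 7 tested genes of the list were expressed there, with means from 11.7 TPM for Atrn to 558 TPM for Nedd4.

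From the MS4A family, the relatives of Tmem176a and Tmem176b, 2 of 20 genes were listed, Ms4a6d and Ms4a12, with a summed level of at most 0.08 TPM.

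Markers of other cells were read beside the 3 genes, since Tmem176a and Tmem176b are known from dendritic cells. Of 26 dendritic cell and macrophage markers, 16 were listed and 5 tested, and their summed level was 48.2 to 50.4 TPM in MC38-P, 61.5 to 68.4 in MC38-LM3a versus 69.7 to 75.7 in MC38-LM3b, opposite in direction to the pair. Most of that sum was Cd68 and Cd14, while Ptprc was at 0.09 TPM or less, Csf1r at 0.14 or less and Cd74 at 0.33 or less. None was a DEG in limma, where 2.89% and 3.93% of all tested genes were. With an adjusted p under 0.05 there were 3 higher and 1 lower in MC38-LM3a versus 4 higher and 1 lower in MC38-LM3b, beside 28.0% and 46.7% of all tested genes. The lower one in each was Flt3, which was tested only through MC38-P, where it was high, so nothing is read from its direction. At an unadjusted p under 0.05 there were 4 and 5, beside 38.5% and 55.2%. Lymphocyte markers had 6 of 14 listed and 0 DEGs of 2 tested, hepatocyte markers 12 of 16 listed and 0 DEGs of 1 tested, with Alb at 0.29 TPM or less, and endothelial markers 7 of 10 listed and 0 DEGs of 2 tested, with Pecam1 at 0.25 TPM or less. Since only 2.89% and 3.93% of all tested genes were DEGs, a count of 0 among so few markers cannot set these lists apart from other genes. In these 3 lists limma gave 1 endothelial marker an adjusted or unadjusted p under 0.05, in MC38-LM3b. Of all tested genes, 28.0% and 46.7% passed at an adjusted p, and 38.5% and 55.2% at an unadjusted one.

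Fibroblast and stellate cell markers had 11 of 14 listed and 5 tested, with a summed level of 141 to 178, 56.1 to 75.7 and 68.4 to 74.7 TPM in the 3 groups. Among them 2 were DEGs in MC38-LM3a versus 3 in MC38-LM3b, all lower like the 3 genes, beside 1.50% and 1.18% of all tested genes. These were Col3a1 (140, 55.0 and 60.9 TPM), Col1a1 (14.0, 4.07 and 4.30 TPM) and, in MC38-LM3b, Acta2 (4.14, 1.77 and 1.56 TPM, log2 fold changes -0.90 and -1.02), whereas Col1a2 was at 0.08 TPM or less and Dcn at 0.13 or less. The Acta2 call was lost without replicate 3 of MC38-P and without replicate 3 of MC38-LM3b, where the value was -0.86, and was gained in MC38-LM3a with smaller pseudocounts. Pdgfrb (1.54, 2.13 and 3.66 TPM) rose by 0.88 in MC38-LM3b (limma adjusted p = 0.00069) and had 0.30 in MC38-LM3a (limma adjusted p = 0.135). Pdgfra (1.01, 0.70 and 1.12 TPM) was not called. Of further markers too low to be tested, Des (0.887, 0.253 and 0.237 TPM) was lower in both derivatives and Fap (0.01, 0.227 and 0.227 TPM) was higher. In 2 alternatives Pdgfrb was a DEG in MC38-LM3b, higher by up to 1.27.

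Against the label of colon epithelium, Krt8 and Krt18 were abundant in every library, at 744 to 1206 and 707 to 981 TPM, but Cdh1 was at 0.08 TPM or less and Vil1 at 0.13 or less. Of 7 tested colon epithelial markers, 2 were DEGs in each derivative, both lower, Epcam (5.76, 2.05 and 2.21 TPM) and Cdx2 (2.27, 0.63 and 0.41 TPM), beside 1.50% and 1.18% of all tested genes called lower. Cdx2 reached 1 TPM only in MC38-P, where it was high, and its log2 fold change was -1.20 in MC38-LM3b and only just past the threshold in MC38-LM3a. In MC38-LM3a its call was lost with the GC content and length correction (-0.98) and without replicate 1 or replicate 2 of MC38-LM3a (-0.94 in each), and it had no value without any 1 MC38-P library. Epcam lost its call in MC38-LM3b in 1 alternative, with 1 library left out, at -0.997. Krt8 fell by 0.48 and 0.56 (limma adjusted p = 0.00046 and 0.00013) and Krt18 by 0.24 and 0.32 (limma adjusted p = 0.026 and 0.0042), short of the fold threshold. In all, 4 of the 7 were lower in each derivative at an adjusted p under 0.05, against 2 higher in MC38-LM3a and 1 in MC38-LM3b, where 28.0% and 46.7% of all tested genes passed in either direction. Those that rose were Krt19 by 0.39 (limma adjusted p = 0.0036) and Krt20 by 0.55 (limma adjusted p = 0.034) in MC38-LM3a and Car2 by 0.34 (limma adjusted p = 0.031) in MC38-LM3b, and Krt20 was tested only through the derivatives. The part of these markers in the levels of Tmem98, Tmem176a and Tmem176b was not tested.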

How the data were processed

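The members and all gene lists were chosen with earlier results of these data known. The deposited values are TPM that the authors gave for each sample with 2 decimals. The submitters' processing notes name HISAT and GRCm39, and the quantification tool and its use of strand are not given in the sources used here. The files hold no counts, so the depth per library is unknown and no counting error is given.

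Values were analysed as log2(TPM + 1) in R 4.3.3 with limma 3.58.1, for 11287 genes that reached 1 TPM in 3 or more libraries. The model gave each group a mean over all 9 libraries, used moderated variances with a trend, and its p-values (two-sided) were adjusted over all tested genes by the Benjamini-Hochberg method. The study's thresholds for DEGs were used, but the study applied them with DESeq2, so the calls and counts here need not match its own. Groups followed the sample labels. Named genes were the 3 members, in each list up to 3 DEGs with the largest mean change and a few key genes, the 3 nearest listed neighbours on each side and neighbours that were DEGs, DEGs named Tmem, and the 5 genes closest to each member in pattern. Naip5, Il18, Ccl7, Gpnmb, Malsu1, Krt8, Krt18 and other genes outside this rule were named after their values were seen.

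Alternatives changed the pseudocount (0.1 and 0.01), the filter, the libraries fitted, the variance trend, the normalization (quantile, median centring, or a loess fit of span 0.3 on GC content and length from GENCODE M21, available for 98.3% of tested genes), the replicate block, the 5 nearest neighbours in place of 10, and left out each library. Promoters were read from RefSeq tables. The fit was tested on simulated data, but the outcome is not given here and no result rests on it. A list of genes fixed for the Tmem176 pair is not reported here.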

Additional observations from a re-analysis of the deposited data

How the results depend on the processing

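The members stayed lower than MC38-P in every setting that gave a value, and none differed between the derivatives at an adjusted p under 0.05 in any (limma, lowest 0.172). Tmem98 passed the 1 TPM filter only through MC38-P and had no value without any of those libraries. Pseudocounts of 0.1 and 0.01 gave Tmem98 -4.79 and -4.98 in MC38-LM3a and -5.11 and -5.36 in MC38-LM3b, Tmem176a -3.87 and -3.90, and -3.68 and -3.70, and Tmem176b -3.78 and -3.80 in MC38-LM3a. In MC38-LM3b, quantile normalization and median centring gave -3.98 and -4.01 for Tmem98, and both gave -3.67 for Tmem176a.

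Between the derivatives the sign turned to -0.10 and -0.060 for Tmem176a and to -0.25 and -0.21 for Tmem176b with quantile normalization and centring. Tmem176b was at -0.015 with the GC content and length correction, with or without the replicate block, and at -0.077 to 0.16 with 1 library left out. Tmem98 then ran from -0.24, without replicate 3 of MC38-LM3b, to -0.042, without replicate 1 of MC38-LM3a, and Tmem176a from 0.078, without replicate 3 of MC38-LM3a, to 0.27, without replicate 2. Same-numbered MC38-P and MC38-LM3a libraries deviated with r from -0.662 to -0.165, where replicate 3 of each group stood apart along transcript length. Same-numbered pairs with MC38-LM3b had r from 0.0353 to 0.0748, under 0.1, and differently numbered ones from -0.0627 to 0.00728. Whether replicate numbers pair the samples was not tested. With the block alone, Tmem98, Tmem176a and Tmem176b kept differences of -0.12, 0.16 and 0.02.

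Counts of DEGs moved as follows, where main counts stand in the text. With at least 5 TPM, inflammasome genes fell to 2 in each derivative, and colon epithelial markers in each and Tmem98 neighbours in MC38-LM3a to 0. Either pseudocount gave 1 dendritic cell and macrophage marker in each, 2 Tmem98 neighbours in MC38-LM3b, 8 Tmem-named genes in MC38-LM3a, and 9 and 10 in MC38-LM3b. Over all tested genes the DEGs also rose, from 326 to 550 and 576 in MC38-LM3a and from 444 to 705 and 750 in MC38-LM3b. Quantile normalization and centring each gave 1 Tmem98 neighbour and 2 Tmem-named genes in MC38-LM3b, of which Tmem119 was lower. The GC content and length correction, also with the replicate block, gave 1 Tmem98 neighbour and 3 Tmem-named genes in MC38-LM3b and 1 colon epithelial marker in MC38-LM3a. With 5 neighbours on each side, those of the Tmem176 pair had 0 in each, since none was tested. With 1 library left out, counts ran from 1 to 2 for colon epithelial markers in each, from 1 to 3 for Tmem98 neighbours in MC38-LM3a and 0 to 2 in MC38-LM3b, and from 3 to 5 for Tmem-named genes in MC38-LM3a and 4 to 6 in MC38-LM3b. Over the other alternatives, fibroblast and stellate cell markers reached 3 in MC38-LM3a and 4 in MC38-LM3b. In MC38-LM3a, colon epithelial markers reached 3 and inflammasome genes 5. Leaving out replicate 3 of both MC38-P and MC38-LM3a, chosen after seeing the data, gave 2 Tmem98 neighbours in MC38-LM3b. Where fewer genes were tested this set the count, and otherwise the cause was not tested.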

Other observations

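Among the dendritic cell genes read beside Tmem176a and Tmem176b, Flt3 and Zbtb46, which help define the lineage, are given with their values. Both were chosen after their values were seen, and Flt3 was the only tested marker of that list that fell. The remaining tested markers had positive log2 fold changes, of 0.33 and 0.57 for Cd68, 0.39 and 0.44 for Cd14, and 0.29 and 0.68 for Clec9a. For Clec9a the limma adjusted p was 0.257 for MC38-LM3a versus 0.0098 for MC38-LM3b. Flt3, the receptor of a dendritic cell growth factor, had 1.18 ± 0.101 TPM in MC38-P and fell to 0.273 ± 0.0493 and 0.36 ± 0.115 TPM in the derivatives (SD, n = 3), by 0.78 and 0.69 on the log2(TPM + 1) scale (limma adjusted p = 0.00060 and 0.00089). Flt3 was tested only through MC38-P, where it was high, and had no value without any 1 of those libraries. Nothing is therefore read from its direction, its p-values or a contrast with Zbtb46. Zbtb46, a transcription factor of classical dendritic cells, rose from 5.52 ± 0.789 TPM to 9.44 ± 0.810 and 10.1 ± 0.492 TPM, by 0.68 and 0.77 (limma adjusted p = 0.0018 and 0.00063). Neither passed the fold threshold of the DEG definition, but with a pseudocount of 0.01 Flt3 did, at -2.09 and -1.74.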
